A study of Mus musculus with 6 samples.

Results

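The cytosolic ribosomal protein genes encode the protein components of the ribosomes that translate nuclear mRNA. They were examined in CD4+ CD25+ cells of the spleen, which the sample labels call regulatory T cells (Treg, CD4- in the series title), from Keap1_KO mice (Keap1 -/-, a floxed Keap1 removed by Cre under the Vav promoter, which acts in blood-forming cells) and from WT mice (Keap1 +/+). Each genotype had 3 expression arrays, Keap1_KO B, C and D and WT A, D and F, and the design text calls the triplicates independent without saying that each is a different animal, so each p-value here reflects array-to-array spread, which may be partly technical. All mice were untreated males on C57BL/6, and their age is given as 10 to 12 months in one label field and 6 to 10 weeks in another. Cells came from magnetic separation, which leaves some other cells behind, and 40 ng of total RNA was amplified per array. The members were all rows of the deposited table with exactly 1 gene symbol that starts with Rpl, Rps or Rplp and a number, or is Rpsa or Fau, without Rps6k kinase genes, pseudogene symbols and predicted genes. This gave 55 of 65528 rows for 47 of 30024 named genes, 26 of the large and 21 of the small subunit.

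The mammalian ribosome joins a large subunit, where peptide bonds form, and a small subunit, where the mRNA is decoded. Each subunit protein is needed at close to the same number of copies as its partners, and the mRNAs of these genes share a run of pyrimidines at the very 5′ end (the terminal oligopyrimidine tract, TOP), through which mTOR signalling controls their translation as a group. T cells raise ribosome production when they are activated, and KEAP1 directs the transcription factor NRF2 to the proteasome.

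Of the 47 genes, 34 are subunit genes in the strict sense and 13 are related names, such as the paralogs Rpl22l1 and Rps27l, the retrocopies Rps3a2 and Rps3a3, or Rps19bp1, which encodes a protein that binds RPS19. Rpl6l is a pseudogene in RefSeq. The 34 are part of the 79 subunit genes listed for the mouse. A further 37 of these, Rpl3, Rpl5, Rplp1, Rplp2, Rps3 and Rps6 among them, lie here on rows that carry several symbols, and 8 were not analysed here. A row is a transcript cluster, the probes of which are summarised into 1 value. Of the 55 member rows, 44 have a chromosome number in their identifier that equals the chromosome of the gene in RefSeq, 8 have another one and 3 have no gene identifier to compare. Over all 22583 rows with a known gene location the 2 numbers were equal in 99.6%. In all, 7 genes had more than 1 row, and the brightest row on average represented the gene in the tests.

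The annotated start sites were searched for this tract, which a minority of them showed. RefSeq promoter windows (GRCm38.p6) were matched to 39 of the 47 genes. In 6 of the 39, or 15.4%, the annotated start base was a C followed by at least 4 further C or T bases, against 3.01% of all 27025 genes with a window. When the tract could begin up to 5 bases to either side of the annotated start, 17 of 39 (43.6%) had it, against 21.2% of all genes. Each line below gives the 15 bases before and the 15 bases from the start, with the tract in capitals, for 7 genes that have one and 3 of the genes with large differences that do not.
Fau (chr19:6057932-6057961, + strand): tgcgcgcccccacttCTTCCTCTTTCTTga
Rpl35 (chr2:39005117-39005146, - strand): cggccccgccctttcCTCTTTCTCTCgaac
Rpl38 (chr11:114668565-114668594, + strand): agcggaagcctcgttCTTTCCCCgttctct
Rps10 (chr17:27635230-27635259, - strand): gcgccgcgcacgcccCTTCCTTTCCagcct
Rps18 (chr17:33955651-33955680, - strand): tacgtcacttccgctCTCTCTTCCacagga
Rpl7a (chr2:26910792-26910821, + strand): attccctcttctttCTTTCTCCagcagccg
Rps26 (chr10:128626492-128626521, - strand): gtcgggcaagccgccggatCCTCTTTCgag
Rpl4 (chr9:64173372-64173401, + strand): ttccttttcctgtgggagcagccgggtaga
Rpsa (chr9:120127751-120127780, + strand): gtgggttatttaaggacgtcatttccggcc
Rps19bp1 (chr15:80264292-80264321, - strand): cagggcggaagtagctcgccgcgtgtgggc

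In the 250 bases before the start, the antioxidant response core TGACNNNGC, the letters that NRF2 and its small MAF partners bind, was found on either strand in 4 of the 39 genes (10.3%), against 11.5% of all genes. The ETS-type motif CCGGAA was found in 14 of 39 (35.9%), against 13.6%. A match is a description of letters. The upstream window of Fau on chromosome 19 is shown, since its start has the tract and its row on another chromosome has the largest small subunit difference below, with the matches to AAGATGGC (1, read on the opposite strand) and GGGCGG (2) in capitals, none of which overlap. AAGATGGC, the YY1-type letters, was in 2 of 39 genes (5.13%) and in 1.83% of all genes, and GGGCGG, the SP1-type letters, in 18 of 39 (46.2%) and in 35.4% of all genes, both strands searched.
Fau upstream (chr19:6057697-6057946, + strand): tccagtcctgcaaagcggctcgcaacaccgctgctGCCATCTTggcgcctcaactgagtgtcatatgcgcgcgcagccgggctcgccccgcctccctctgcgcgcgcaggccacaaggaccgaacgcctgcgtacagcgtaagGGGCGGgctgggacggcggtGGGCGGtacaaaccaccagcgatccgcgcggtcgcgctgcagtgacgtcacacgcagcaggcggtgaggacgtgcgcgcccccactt

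The targeted gene and a marker of its loss were read first, on the deposited log2 scale used throughout. Keap1 read 4.87, 4.89 and 4.70 on Keap1_KO B, C and D, against 5.304, 5.408 and 5.768 on WT A, D and F. The NRF2 target Nqo1 read 8.504, 7.548 and 9.135 against 4.68, 4.69 and 5.03. For Keap1 and Nqo1 no Keap1_KO array overlapped the WT arrays. The Keap1 values lay low, below the array median on all Keap1_KO arrays and on WT A. Its row therefore did not pass the filter and is not among the genes tested below. Nfe2l2, which encodes NRF2, read 9.07, 10.07 and 10.66 in Keap1_KO and 8.73, 9.64 and 8.41 in WT, with Keap1_KO B below WT D. All 11 CD4 T cell markers and all 12 Treg markers with a row of their own reached the array median on at least 1 array, with Foxp3, the defining Treg factor, on a row it shares with other genes and so not used, and the summed Treg level, as log2, was 16.3 to 16.7 in Keap1_KO and 16.1 to 16.1 in WT. Across all 16825 genes tested, no gene passed an adjusted p under 0.05 (limma, Benjamini-Hochberg), 1733 (10.3%) had an unadjusted p under 0.05, all Keap1_KO arrays lay above all WT arrays for 9.11% and below them for 4.96%.

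Almost all ribosomal protein genes had a somewhat higher mean in Keap1_KO cells, and none of them separated the genotypes. Of 45 members tested, 42 had a higher mean in Keap1_KO, against 56.5% of all genes tested. The median difference, Keap1_KO minus WT, was 0.30 on the log2 scale (quartiles 0.084 and 0.44), against 0.061 for all genes (quartiles -0.18 and 0.39). No member passed the adjusted threshold (limma adjusted p from 0.476 to 0.982), against 0% of all genes, and 0 of 45 had an unadjusted p under 0.05, against 10.3% of all genes. In 0 of 45 did all Keap1_KO arrays lie above all WT arrays, against 9.11% of all genes, and in 0 did they lie below. Every tested member reached the array median on each of the 6 arrays, so none entered through 1 genotype. In bulk RNA, fewer cells of a type and less RNA per cell cannot be told apart.

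**Figure D1:**
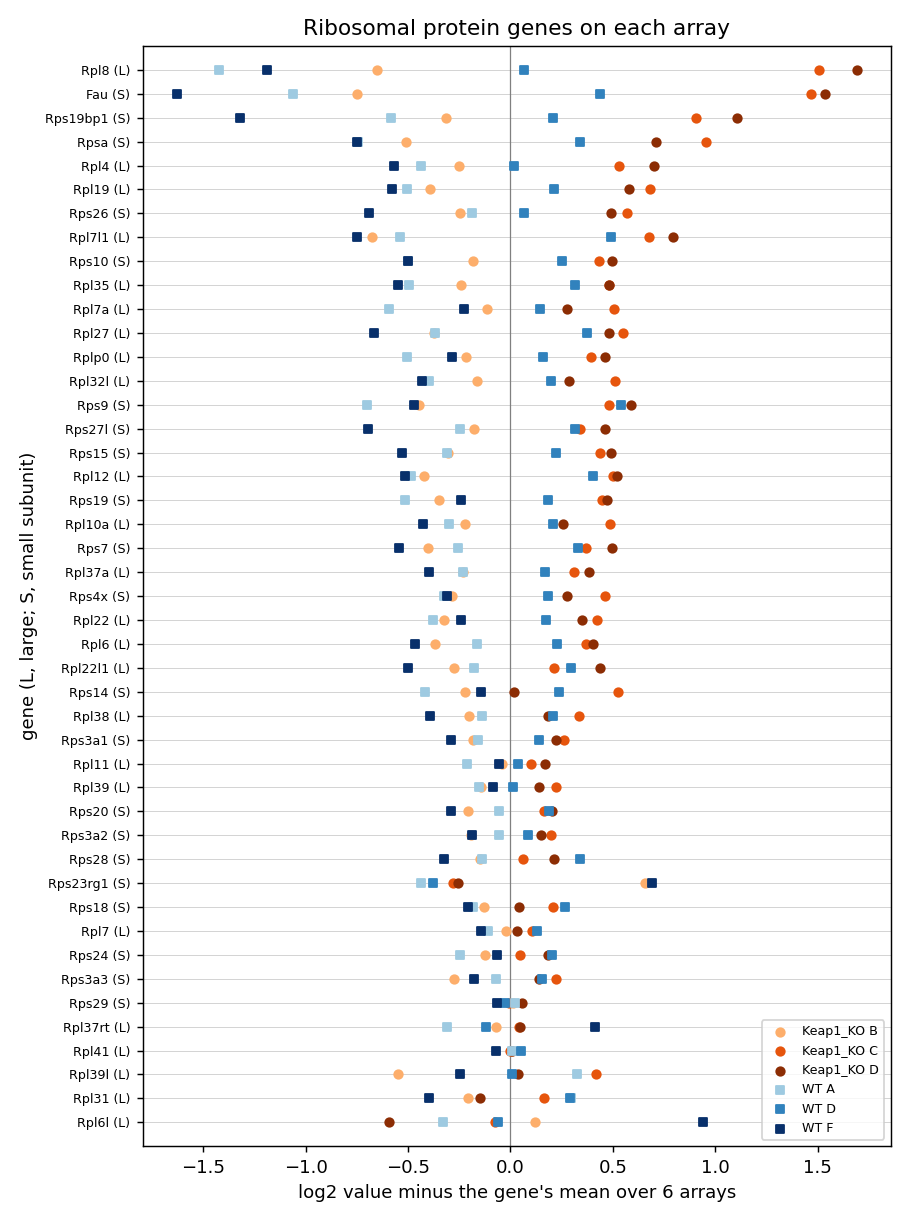
Log2 value of each of the 45 tested ribosomal protein genes on each array, minus the gene's mean over the 6 arrays, with circles for Keap1_KO, squares for WT and genes ordered by the Keap1_KO minus WT difference. For most genes Keap1_KO C and D lie highest, WT D comes next, and Keap1_KO B lies with WT A and WT F.

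The arrays fell in the same order for most members, and that order cut across the genotypes. Keap1_KO C, Keap1_KO D and WT D were the 3 highest arrays for 38 of 45 members, against 25.1% of all genes. Keap1_KO B was the lowest Keap1_KO array for 41 members (46.9% of all genes), WT D was the highest WT array for 39 (46.8% of all genes), and Keap1_KO B lay below WT D for 41 (56.4% of all genes). The exceptions to the last count were Rps23rg1, Rps29, Rpl37rt and Rpl6l. The mean deviation of the 45 members from their 6-array means was -0.24, 0.39 and 0.36 on arrays B, C and D of Keap1_KO, against -0.33, 0.18 and -0.37 on arrays A, D and F of WT. Without Keap1_KO B, 28 of 45 members had both remaining Keap1_KO arrays above all WT arrays, against 31.4% of all genes, 12 had an unadjusted p under 0.05, against 27.1%, and the median difference was 0.52. Without WT D, 21 of 45 had all Keap1_KO arrays above the remaining WT arrays, against 23.7% of all genes, 5 had an unadjusted p under 0.05, against 11.9%, and the median was 0.47. Without Keap1_KO C the median was 0.20. No member passed the adjusted threshold when any single array was left out. The median turned to -0.14 in a fit that also held the arrays' first principal component, which took up 66.6% of the variance. The component scored -0.24, 0.48 and 0.57 on arrays B, C and D of Keap1_KO, against -0.29, 0.036 and -0.55 on arrays A, D and F of WT. It was thus higher on average in Keap1_KO and takes up part of any genotype difference, so this fit cannot tell the component and the genotype apart.

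Markers of several cell types also differed between arrays. The 11 CD4 T cell markers had mean deviations of -0.26, 0.63 and 0.71 on arrays B, C and D of Keap1_KO, against -0.52, -0.0018 and -0.56 on arrays A, D and F of WT, and all 11 had a higher mean in Keap1_KO. Their summed level, as log2, ranged from 18.2 to 19.3 in Keap1_KO and from 17.8 to 18.6 in WT. Of 16 neutrophil and granulocyte markers, 15 had a higher mean in Keap1_KO, and their summed level read 15.4, 18.5 and 19.99 on arrays B, C and D of Keap1_KO, against 14.5, 17.6 and 16.2 on arrays A, D and F of WT, with 1 marker below its array's median on all arrays. Of 8 B cell markers 6 were higher, with summed levels of 11.02 to 13.02 in Keap1_KO and 9.45 to 11.9 in WT, and none was below the median on all arrays. Keap1_KO C and D and WT D were also the 3 highest arrays for the CD8 T cell markers, with mean deviations of -0.74, 0.90 and 0.96 in Keap1_KO and -0.42, 0.37 and -1.07 in WT, and 2 of 2 were higher. For plasma cell markers Keap1_KO D was highest, with -0.52, 0.25 and 1.16 in Keap1_KO and -0.44, 0.24 and -0.70 in WT, and 6 of 7 were higher. NK cell markers were higher in 7 of 8, with -0.29, -0.26 and 1.30 in Keap1_KO and -0.20, 0.90 and -1.46 in WT. For Treg markers, 9 of 12 higher, the mean deviations of -0.13, 0.70 and 0.68 in Keap1_KO all lay above the -0.45, -0.20 and -0.60 in WT. The remaining marker lists had median differences near 0. Higher means were found for 6 of 11 macrophage and monocyte markers (median 0.015) and 4 of 8 dendritic cell markers (0.023). They were found for 2 of 5 erythroid (-0.044) and 2 of 5 platelet and megakaryocyte markers (-0.0093). Of the macrophage and monocyte markers, 3 lay below the median on all arrays. The part of any of these cell types in the ribosomal protein values was not tested.

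The members above 16 and the other genes above 16 had like differences. Among 21 members with a mean value above 16, the median difference was 0.31 and all 21 were higher in Keap1_KO. Among the 357 other genes above 16 the median was 0.30 and 84.9% were higher, and all Keap1_KO arrays lay above all WT arrays in 3.08% of them. These other genes had mean deviations of -0.19, 0.38 and 0.37 on arrays B, C and D of Keap1_KO, against -0.35, 0.15 and -0.36 on arrays A, D and F of WT, close to those of the ribosomal protein genes. Among the 24 members up to 16 the median was 0.24, with 21 higher, and no other genes of matched level were compared with them. Values above 16 exceed what a 16-bit scanner can record on the log2 scale, so an unstated rescaling lies behind them. Fold values given below are differences on this scale taken out of log2, and may not equal fold changes in RNA.

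**Figure D2:**
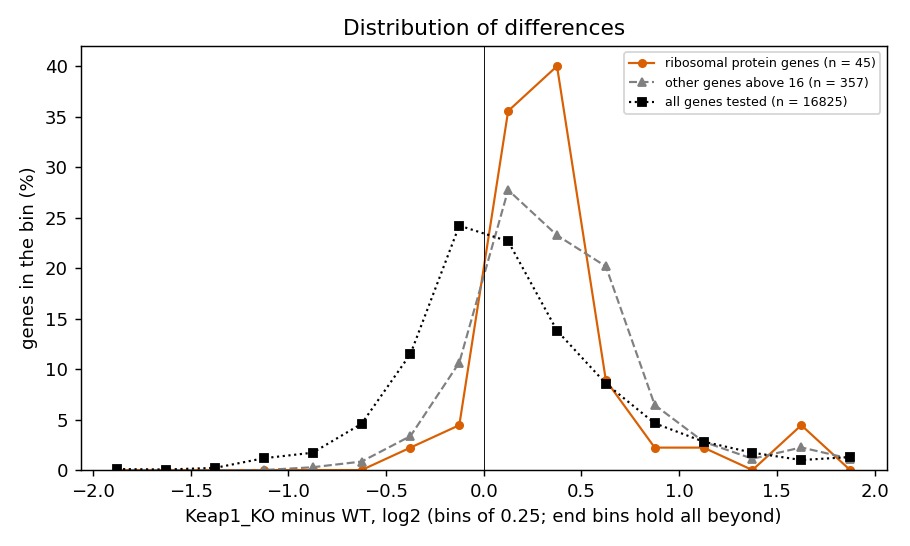
Percent of genes (vertical axis) in bins of the Keap1_KO minus WT log2 difference (horizontal axis) for the 45 ribosomal protein genes, the 357 other genes with a mean above 16 and all 16825 genes tested. The ribosomal protein genes and the other bright genes both peak to the right of 0, with medians of 0.30 and 0.30, against 0.061 for all genes.

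The large subunit had 24 tested genes, of which 21 had a higher mean in Keap1_KO, with a median difference of 0.30 and a range from -0.37 to 1.70. The gene with the largest difference was Rpl8, whose protein sits near the site where peptide bonds form. Rpl8 read 14.45, 16.61 and 16.79 on Keap1_KO B, C and D, against 13.68, 15.17 and 13.92 on WT A, D and F. Keap1_KO C and D stood above all WT arrays, and Keap1_KO B stood below WT D. Its mean was 15.95 ± 1.30 in Keap1_KO and 14.26 ± 0.80 in WT (SD, n = 3 each), a difference of 1.70 (SE 0.71, 3.24-fold), with an exact two-sided permutation p of 0.2 and a limma adjusted p of 0.476, in a range of adjusted p from 0.041 to 0.998 over the alternatives. The smallest exact p that 3 arrays against 3 allow is 0.1.

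Rpl4, whose protein reaches into the wall of the exit tunnel, read 17.31, 18.09 and 18.26 in Keap1_KO, against 17.13, 17.58 and 16.99 in WT. Here Keap1_KO B also lay below WT D but above the other WT arrays, and the difference was 0.66 (SE 0.30, limma adjusted p = 0.479). Rpl19, which helps to bridge the subunits, read 15.81, 16.88 and 16.78 in Keap1_KO and 15.70, 16.42 and 15.62 in WT, a difference of 0.58 (SE 0.36, limma adjusted p = 0.518). Rplp0, the base of the stalk that binds elongation factors, read 13.71, 14.32 and 14.39 in Keap1_KO and 13.42, 14.08 and 13.64 in WT, a difference of 0.42. For all of these genes the groups overlapped through Keap1_KO B and WT D.

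Other large subunit genes with known roles outside or beyond the core differed less. Rpl22, which mouse alpha-beta T cells need for their development, read 9.001, 9.747 and 9.676 in Keap1_KO and 8.948, 9.498 and 9.086 in WT, and its paralog Rpl22l1 read 15.85, 16.33 and 16.56 in Keap1_KO and 15.94, 16.41 and 15.62 in WT. Their differences were 0.30 (SE 0.27) and 0.25 (SE 0.28), with overlapping arrays. Rpl11, which joins the 5S particle and can bind MDM2, read 8.38, 8.53 and 8.59 in Keap1_KO and 8.21, 8.46 and 8.37 in WT, a difference of 0.15. Rpl38, which mouse embryos need for the translation of Hox mRNAs, differed by 0.21, Rpl10a of the L1 stalk by 0.35 and Rpl39 of the exit tunnel by 0.15, each smaller than its SD within Keap1_KO. Rpl37a differed by 0.31 (SE 0.25).

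Of the large subunit, 3 members had a lower mean in Keap1_KO. Rpl6l, the pseudogene, read 12.70, 12.50 and 11.99 in Keap1_KO and 12.25, 12.52 and 13.52 in WT, a difference of -0.37 (SE 0.38) in which WT F stood alone at the top. Rpl31, measured here by a row on another chromosome than the gene, differed by -0.13 (SE 0.25). A brighter row on the gene's own chromosome, which carries a further symbol and was not part of the fit, differed by 0.13. Rpl39l, a paralog of Rpl39 known from male germ cells, differed by -0.060 (SE 0.29), and by 0.052 after centring the arrays on their medians. The germ cell and muscle paralogs Rpl10l and Rpl3l were the 2 members that did not pass the filter: they read 3.83, 3.98 and 3.80 and 4.50, 4.49 and 4.59 in Keap1_KO, and 3.73, 4.09 and 3.67 and 4.50, 4.50 and 4.37 in WT, below the array medians of 5.16 to 5.43. Rpl7l1, a paralog of Rpl7, read 7.92, 9.27 and 9.39 in Keap1_KO and 8.05, 9.08 and 7.84 in WT, a difference of 0.53 (SE 0.50), with Keap1_KO B below 2 of the WT arrays.

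The small subunit had 21 tested genes, all 21 with a higher mean in Keap1_KO, a median difference of 0.30 and a range from 0.044 to 1.50. Fau, which encodes a small subunit protein fused to a ubiquitin-like domain, read 16.14, 18.36 and 18.42 on Keap1_KO B, C and D, against 15.82, 17.32 and 15.26 on WT A, D and F. These values come from a row of chromosome 16, whereas the gene lies on chromosome 19. The pattern matched that of Rpl8, with Keap1_KO B below WT D. The mean was 17.64 ± 1.30 in Keap1_KO and 16.14 ± 1.07 in WT (SD, n = 3 each), a difference of 1.50 (SE 0.78, 2.83-fold, exact two-sided permutation p = 0.2, limma adjusted p = 0.493, range over the alternatives 0.049 to 0.998). The row at the gene's own location gave a difference of 0.62 (1.53-fold). Rpsa, whose protein is also known as a laminin receptor, read 13.15, 14.62 and 14.37 in Keap1_KO and 12.92, 14.00 and 12.91 in WT. Its difference was 0.77 (SE 0.48, limma adjusted p = 0.517), and Keap1_KO B lay between the WT arrays. Rps19bp1, which is no subunit gene, read 7.76, 8.97 and 9.17 in Keap1_KO and 7.49, 8.28 and 6.75 in WT, a difference of 1.13 (SE 0.51, limma adjusted p = 0.478). Without Keap1_KO B the differences were 2.45 for Rpl8, 2.25 for Fau, 1.22 for Rpsa and 1.57 for Rps19bp1, with limma adjusted p of 0.052, 0.089, 0.121 and 0.101. Array weights were lowest for Keap1_KO B (0.352) and highest for WT A (3.377), with 0.758 for WT D and 0.51 for WT F. The WT mean then rests mostly on WT A. With these weights Rpl8 (limma adjusted p = 0.041), Rpl4 (0.046), Fau (0.049) and Rps19bp1 (0.049) passed, 4 of 45 members, against 11.2% of all genes.

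**Figure D3:**
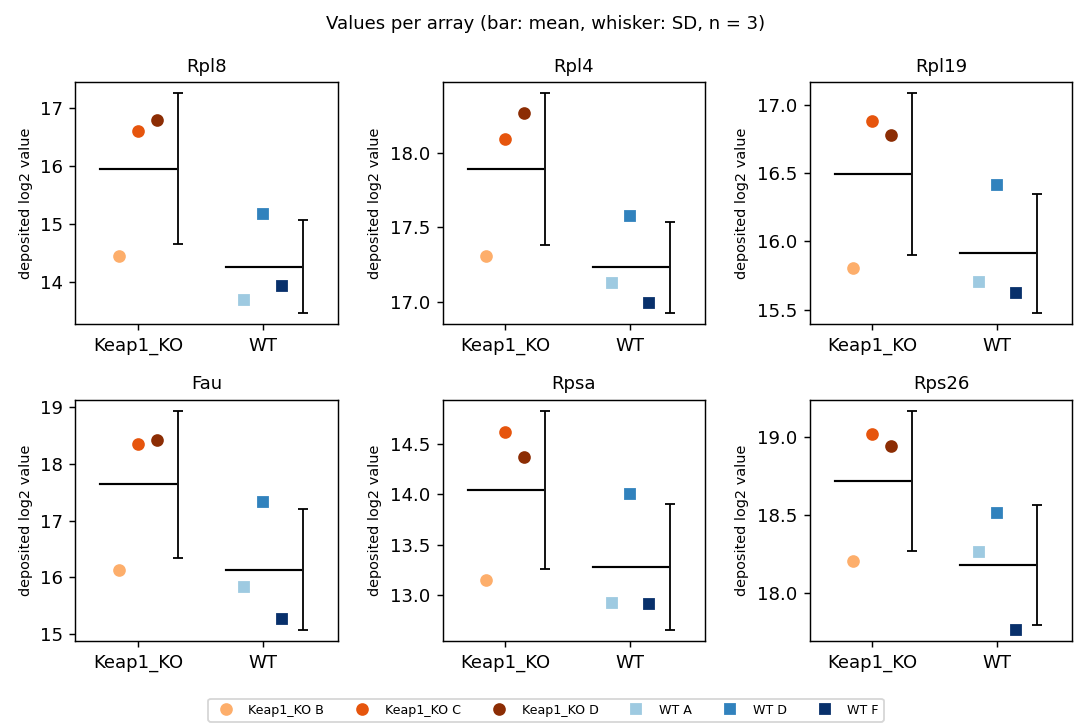
Deposited log2 values per array of Rpl8, Rpl4 and Rpl19 of the large subunit (top) and Fau, Rpsa and Rps26 of the small subunit (bottom), with horizontal bars for the mean and whiskers for the SD over 3 arrays of Keap1_KO (left, circles) and WT (right, squares). In each panel Keap1_KO C and D lie above all WT arrays while Keap1_KO B lies below WT D.

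Other small subunit genes with known roles are given next. Rps19, whose loss of 1 copy causes Diamond-Blackfan anemia in humans, read 7.65, 8.45 and 8.47 in Keap1_KO and 7.48, 8.18 and 7.76 in WT, a difference of 0.38 (SE 0.30). Rps14, the gene behind the red cell defect of the human 5q- syndrome, read 8.74, 9.48 and 8.98 in Keap1_KO and 8.55, 9.20 and 8.82 in WT, a difference of 0.21 (SE 0.27). The groups overlapped in both. Rps7 differed by 0.31 (SE 0.33), Rps20 of the small subunit head by 0.10 (SE 0.21), and Rps27l, a p53-induced paralog of Rps27, by 0.42 (SE 0.31). The smallest differences were 0.044 for Rps29, 0.060 for Rps3a3, 0.072 for Rps24, 0.081 for Rps18, 0.083 for Rps23rg1, a retroposed copy of Rps23, 0.084 for Rps28 and 0.10 for Rps3a2. Of these, Rps3a3 differed by -0.036 and Rps24 by -0.0039 after repeated quantile normalization.

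Among the subunit genes with a row of their own, the 2 brightest, Rps29 and Rpl41, spanned a narrow range near the top of the scale. Rps29, a small zinc-binding protein of the small subunit, read 19.14, 19.12 and 19.18 in Keap1_KO and 19.15, 19.10 and 19.06 in WT, and Rpl41, the shortest ribosomal protein, read 19.27, 19.26 and 19.27 in Keap1_KO and 19.27, 19.31 and 19.19 in WT. The whole range over 6 arrays was 0.12 for each of these genes, against a median range of 0.90 in the 10 members between 18 and 19, 1.04 in the 9 between 16 and 18, and 0.97 in the 11 between 10 and 16. Not every bright row was this narrow. A row shared by Rps13 and other symbols read 19.51, 19.82 and 19.72 in Keap1_KO and 19.62, 19.75 and 19.43 in WT. One shared by Rps27 and Rps27rt read 19.25, 19.65 and 19.53 in Keap1_KO and 19.07, 19.54 and 19.15 in WT. The highest value of any row was 19.93, and the part of a limit at the top of the scale was not tested. The second row of Rpl41, which read 8.63, 9.11 and 9.07 in Keap1_KO and 8.42, 8.85 and 8.48 in WT, had a range larger than that of the first and a difference of 0.35 (SE 0.21).

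Rows that carry the same gene name gave the same direction in most cases but not the same size. Fau differed by 0.62 (SE 0.47) on the row of its own chromosome and by 1.50 on a row of another chromosome, Rpl35 by 0.15 and 0.48, Rpl27 by 0.25 and 0.44, and Rpl7a by 0.23 and 0.45, in the same order. For Rpl41 that order gave 0.35 and 0.0096. Rps26, whose protein lines the mRNA exit channel, differed by 0.54 on its own chromosome and by 0.57 on another, whereas a row on chromosome 12, which has no gene identifier, read 7.52, 5.04 and 6.45 in Keap1_KO and 7.96, 7.07 and 8.83 in WT, a difference of -1.62 (SE 0.71, limma adjusted p = 0.477). That row ran opposite to the others, with Keap1_KO C lowest. With all rows of a gene averaged, Rps26 differed by -0.17. Levels of different rows come from different probes and were not set against each other. Leaving out the rows on another chromosome than their gene, and keeping those of unknown location, 41 of 43 members had a higher mean and the median was 0.27.

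**Figure D4:**
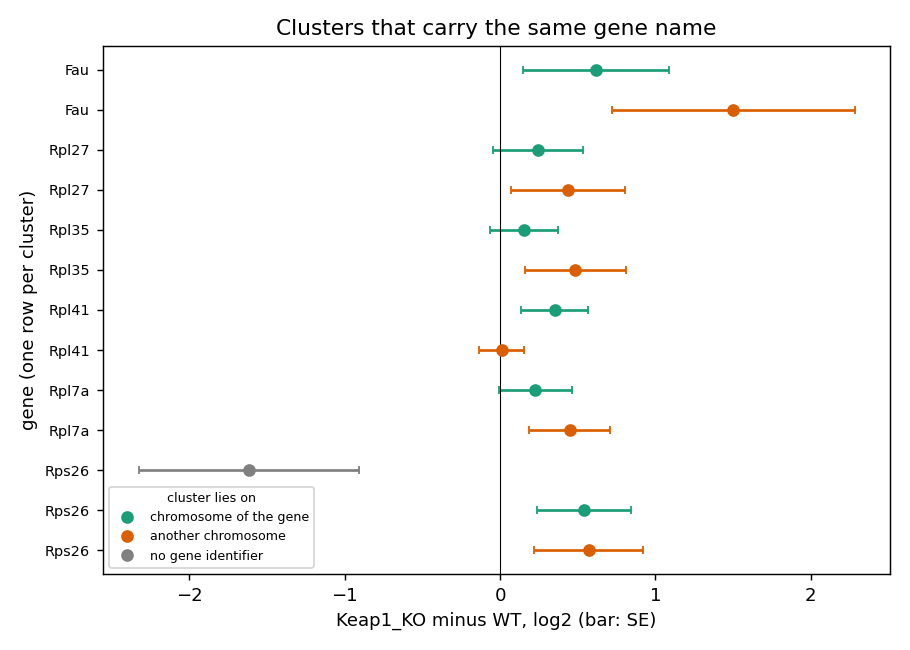
Keap1_KO minus WT log2 difference (horizontal axis, bars for the SE) of each row of the ribosomal protein genes that have more than 1 tested row, coloured by whether the row lies on the gene's chromosome, on another one or has no gene identifier. The chromosome 12 row of Rps26 lies at -1.62, to the left of 0, and the others lie at or to the right of 0.

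The large and the small subunit genes had like array patterns. The mean deviation was -0.25, 0.39 and 0.33 for the large and -0.23, 0.39 and 0.39 for the small subunit on arrays B, C and D of Keap1_KO, and -0.32, 0.17 and -0.33 for the large and -0.34, 0.20 and -0.42 for the small subunit on arrays A, D and F of WT. The mean of the large subunit genes minus that of the small subunit genes was 0.750, 0.774 and 0.721 on the Keap1_KO arrays and 0.798, 0.736 and 0.864 on the WT arrays. The height of this value depends on the probes, so only its change between arrays can be read. It averaged 0.748 ± 0.027 in Keap1_KO and 0.800 ± 0.064 in WT (SD, n = 3 each). The difference of -0.051 was smaller than the SD of WT, the arrays overlapped, and the sign turned with subunit genes alone (0.0079). The 34 subunit genes in the strict sense had a median difference of 0.31 with 33 higher, and the 11 tested related genes one of 0.10 with 9 higher.

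**Figure D5:**
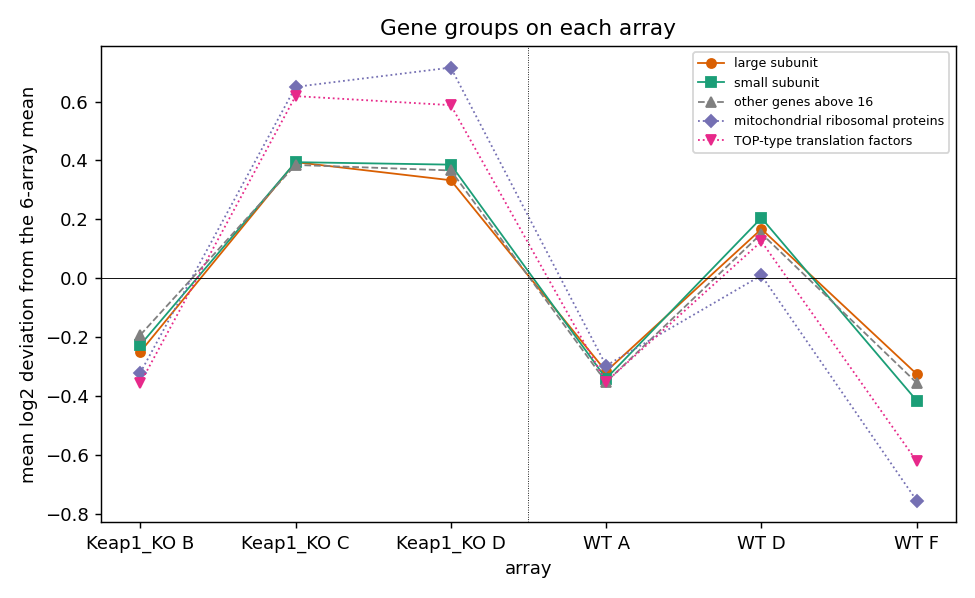
Mean log2 deviation from the 6-array mean (vertical axis) on each array (horizontal axis, Keap1_KO left of the dotted line and WT right of it) for the tested large and small subunit genes, other genes with a mean above 16, mitochondrial ribosomal protein genes and TOP-type translation factors. The 2 subunits lie almost on top of each other and of the other bright genes, high on Keap1_KO C and D and above 0 on WT D.

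Rows outside the rule that hold ribosomal protein symbols gave a like picture. Of 53 rows that carry such a symbol together with others, 50 were higher on average in Keap1_KO, with a median of 0.22 (from -0.12 to 1.47), and in 0 did all Keap1_KO arrays lie above all WT arrays. The row of Rplp1, a stalk protein, with a predicted gene had the largest difference, at 17.20, 19.02 and 19.11 in Keap1_KO and 16.34, 18.08 and 16.52 in WT, again with Keap1_KO B below WT D. The other stalk gene Rplp2 differed by 0.35, and Rpl3, near the peptide bond site, by 0.49. Rpl5, a partner of Rpl11 in the 5S particle, had 2 such rows with differences of 0.11 and 0.86. Rps3, which lies at the mRNA entry, differed by 0.024, and Rps6, whose phosphorylation is a readout of mTOR signalling, by 0.055. These shared rows were not part of the fit. Of 197 rows with a single ribosomal protein pseudogene symbol, 183 were higher, with a median of 0.34.

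Genes that act with the ribosome were compared as lists, and no member of any list passed the adjusted threshold. Of 19 TOP-type translation factors tested, 18 had a higher mean in Keap1_KO, with a median of 0.40, and Keap1_KO B lay below WT D in 18. The elongation factor gene Eef1a1 differed by 0.11 and Tpt1, which encodes the growth-linked protein TCTP, by -0.075. The initiation factor subunits Eif3k, Eif3l and Eif3h differed by 1.76, 1.24 and 1.02 with overlapping arrays. Vim, the intermediate filament gene, differed by 1.23 (SE 0.30, limma adjusted p = 0.476) and was the 1 of 19 list members, against 9.11% of all genes, in which all Keap1_KO arrays lay above all WT arrays.

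Ribosome biogenesis factors, which process and assemble rRNA in the nucleolus, were higher in 43 of 59 tested genes with a median of 0.31. The groups did not overlap in 2 higher genes and 1 lower gene of the 59, against 9.11% and 4.96% of all genes. Rrp1, a factor for large subunit rRNA, differed by 0.88, the rRNA methyltransferase gene Fbl by 0.84, Nop53 by 1.27 and Nop16 by 1.19 (limma adjusted p from 0.476 to 0.477). Subunits and factors of RNA polymerases I and III, which make rRNA, 5S RNA and tRNA, were higher in 22 of 31 with a median of 0.26, among them Polr1d by 1.41, Crcp by 1.10 and Polr1e by 0.76, while Polr3f differed by -0.69. The groups did not overlap for 6 higher and 2 lower genes of the 31, against 9.11% and 4.96% of all genes.

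Of 16 tested genes listed for mTOR signalling to translation, 13 were higher with a median of 0.36. That list also holds the transcription factor genes Myc and Max. Eif4ebp2, a repressor of cap-dependent initiation, differed by 0.49, Eef2k by 0.34, Max by 0.39 and Tsc2 by 0.44. The groups did not overlap for 1 higher gene (Eef2k) and 1 lower gene (Eif4g2) of the 16, against 9.11% and 4.96% of all genes. Of 16 ribosome quality control genes, 7 were higher with a median of -0.020, among them Ascc2 by 0.39, Denr by 0.54 and Zfp598 by 0.34, and Ascc3 differed by -0.70. Here the groups did not overlap for 3 higher genes (Ascc2, Denr and Zfp598) and 0 lower genes of the 16, against 9.11% and 4.96% of all genes. For comparison, the mitochondrial ribosomal protein genes, the separate set that builds the ribosome inside mitochondria, were higher in 74 of 77 with a median of 0.66. Unlike the cytosolic set, this list also counts pseudogene symbols: Mrpl23-ps1 (2.91), Mrpl48-ps (1.31), Mrps36-ps1 (1.27) and Mrps36-ps2 (1.31). Over the whole list the groups did not overlap in 4 of 77 genes, a smaller share than the 9.11% of all genes. Among them were Mrps15 (0.69), Mrpl28 (1.40) and Mrpl54 (0.90), while Mrpl12 differed by 1.06 with overlapping arrays. Keap1_KO B lay below WT D in 67 of the 77. The lists were not tested against the cytosolic ribosomal protein genes. The tested members with a start-site tract had a median difference of 0.42 (17 genes), and those without one of 0.31 (20 genes). The ranges overlapped (-0.13 to 1.50 and -0.060 to 1.13). The start sites lie at the gene's own location, but some differences came from rows on another chromosome. Those were Fau, Rpl35, Rpl7a, Rpl12 and Rpl31 with a tract, and Rpl27 and Rpl41 without one. Own-chromosome rows gave 0.62, 0.15 and 0.23 for Fau, Rpl35 and Rpl7a, and 0.25 and 0.35 for Rpl27 and Rpl41. The order of the 2 medians therefore cannot be read. The 3 tested members with the TGACNNNGC letters were Rpl22l1, Rpl37rt and Rplp0, with differences of 0.25, 0.012 and 0.42.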

How the data were processed

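The deposited log2 values are RMA summaries, with Transcriptome Analysis Console and Expression Console (both Affymetrix) also named, per the submitters' processing notes, which give no version or role. For the rows, no genome build was given in the sources used. Values ran from 1.88 to 19.93. Names came from a platform annotation table through the row identifiers, updated by Entrez identifier (824 of 30354 rows with 1 symbol changed, which brought in Rpl37rt and a second row of Rps23rg1). A row was tested when it was at or above its array's median on at least 3 of 6 arrays, and the row with the highest mean stood for a gene. Genotypes were compared by limma 3.58.1 in R 4.3.3 (lmFit, eBayes, two-sided, Benjamini-Hochberg over 16825 genes, threshold 0.05), and single genes also by an exact permutation test. The fit was tested on simulated data with independent noise for each gene. That test leaves out shifts that many genes share on an array, so it cannot show how the fit behaves under them. For arrays, their number limits the precision. Named genes were those fixed by role, the 4 most positive and most negative differences and the 2 highest and lowest values per subunit, every member whose groups did not overlap, and up to 4 genes of smallest p per list. Outside this rule, Eef1a1, Tpt1, Rps28, the genes with several rows and the chromosome 12 row of Rps26 were chosen after their values were seen. Also outside it, among others, are Eif4g2, Rpl37rt, the pseudogenes of the mitochondrial list and the shared row of Rps13. The members and lists were chosen with earlier results of these data known. Alternatives changed the filter, the row choice, scaling, variance prior, weights and covariates, or left out an array.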

Additional observations from a re-analysis of the deposited data

How the results depend on the processing

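No paired analysis was possible because the genotypes share only the replicate letter D. Leaving out each array in turn, the count of all genes past the adjusted threshold lay between 0 and 569 (569 without Keap1_KO B) and that with unadjusted p under 0.05 between 565 and 4552. Among the 45 ribosomal protein genes the latter count lay between 0 and 12, and the count with all Keap1_KO arrays above all WT arrays between 0 and 28. The other lists had 19, 59, 31, 16, 16 and 77 tested genes. Their count past the threshold lay between 0 and 10, beside 0 to 569 of all 16825 genes. The median of the quality control list lay between -0.10 and 0.058. Differences that crossed 0 ranged from -0.28 to 0.20 for Rpl39l, -0.024 to 0.037 for Rpl41, -0.62 to 0.010 for Rpl6l, -0.0034 to 0.24 for Rps18, -0.015 to 0.23 for Rps20, -0.22 to 0.45 for Rps23rg1, -0.032 to 0.19 for Rps24 and -0.036 to 0.21 for Rps3a3. These ranges cover the 31 genes named by the rule that were tested. Of the other members, Rpl37rt differed by -0.045 without WT D and lay further below 0 without WT A. Rps28 also had a lower mean in Keap1_KO without WT F and, by a small margin, without Keap1_KO D. With array weights 1880 of all genes (11.2%) passed and 5897 had an unadjusted p under 0.05. Of the 45 ribosomal protein genes 4 passed (0.90 for Rpl4, 1.40 for Rps19bp1, 2.14 for Fau and 2.51 for Rpl8) and 23 had an unadjusted p under 0.05. Of the genes tested in the other lists 31 passed, and Rpl41 differed by -0.0035. With a variance prior that follows the level, 1 gene passed, and 1 of 45 ribosomal protein genes, Rpl8, had an unadjusted p under 0.05. With arrays centred on their medians, 1 of 45 had such a p (Rpl8) and 1 had groups that did not overlap (Rps29). In the main fit the shares of all genes were 10.3% for that p and 9.11% for all Keap1_KO arrays above all WT arrays. With centred arrays Rpl39l differed by 0.052, and the quality control median was 0.092. After repeated quantile normalization that median was 0.042, and Rpl39l differed by 0.054, Rps3a3 by -0.036 and Rps24 by -0.0039. Without a filter 2629 genes had an unadjusted p under 0.05. Averaging rows gave -0.17 for Rps26. The large minus small difference was 0.0079 with subunit genes alone, 0.0026 with each row on its own, 5.0e-05 with genes of a single row and 0.034 without paralog names, all under the spread between arrays.

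With the first principal component as covariate, 698 genes and 1 ribosomal protein gene had an unadjusted p under 0.05, 9 ribosomal protein genes had a higher mean, and the medians were -0.14 for all members, -0.12 for the large and -0.15 for the small subunit, -0.13 for TOP-type factors, -0.14 for biogenesis, 0.0099 for polymerases, 0.023 for mTOR signalling, 0.047 for quality control and 0.0022 for mitochondrial ribosomal proteins. The differences then were -0.52 for Rpl7l1, -0.35 for Rps7, -0.27 for Rpl22l1, -0.25 for Rps3a3, -0.22 for Rps20, -0.19 for Rpsa, -0.19 for Fau, -0.17 for Rps18, -0.17 for Rpl38, -0.17 for Rpl22, -0.15 for Rps27l, -0.15 for Rps3a2, -0.15 for Rpl19, -0.14 for Rps19, -0.14 for Rpl37a, -0.13 for Rps24, -0.12 for Rps14, -0.12 for Rpl10a, -0.042 for Rps26, -0.036 for Rpl39, -0.026 for Rplp0, -0.021 for Rpl41 and 0.14 for Rpl6l. The component is higher on average in Keap1_KO and separates Keap1_KO C and D from the other arrays. It therefore takes up part of any genotype difference, and the cause of these turns was not tested.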
